A study of Homo sapiens with 4 samples.

Results

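The genes described here are 10 human genes of the endoplasmic reticulum (ER), namely XBP1, HSPA5, HYOU1, HSP90B1, DNAJB9, SDF2L1, PDIA4, CRELD2, MANF and HERPUD1. They were chosen by name, as chaperones, folding enzymes and response genes of the ER, and each identifier of the gene table was matched to its symbol by GENCODE release 44. All 10 were found, and all 10 were among the 17075 genes that passed the filter on low counts, of 65217 rows in all. RNA sequencing compared SEM cells retrieved from brain (2 libraries) with SEM cells retrieved from spleen (2 libraries). SEM is an established human B-cell precursor acute lymphoblastic leukaemia line with the t(4;11) translocation, which makes the KMT2A-AFF1 (MLL-AF4) fusion. In both groups the cells carried this fusion and had grown in immunodeficient mice that were 6 to 10 weeks old at transplantation, and neither group had a further treatment in the labels. The mouse strain, and so the host immune cells that remained, is not given in the sources used here. Per the labels, the cells taken at the brain were collected from the leptomeninges, a Ficoll gradient served to enrich the leukaemic cells, each library combines RNA from 5 mice, and replicates 1 and 2 are repeats of the whole experiment. Each library is thus a pool, and the spread between animals was not measured.

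The ER is where secreted and membrane proteins fold. When unfolded proteins build up there, the sensors ERN1 (IRE1), EIF2AK3 (PERK) and ATF6 start the unfolded protein response, which raises the production of chaperones, of folding enzymes and of the machinery that removes misfolded proteins, while it slows general translation. In the B lineage this response is best known from plasma cells, which secrete antibody in large amounts and depend on XBP1.

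The spleen libraries stood further apart from each other than the brain libraries did, with a difference that moved with GC content. Each gene is therefore given with all libraries and with either spleen library left out. A fit with 1 library in a group takes its spread from the other group alone, so for the 10 genes only its fold change is given. No gene of the 10 passed the test between brain and spleen that left the replicate numbers out of the fit. By edgeR's quasi-likelihood test with Benjamini-Hochberg adjustment over all 17075 genes, 0 of 10 had an adjusted p under 0.05, where 2.02% of all genes did (279 higher and 66 lower in brain). DESeq2 called 1 of the 10, MANF. With the replicate number as a block, which pairs the libraries of 1 occasion, edgeR's test called 2 of the 10. These were SDF2L1 (adjusted p = 0.0334) and MANF (adjusted p = 0.0107), both lower in brain, beside 3.37% of all genes called lower under that fit. At an unadjusted p under 0.05, edgeR's test without the block gave 4 genes lower in brain (XBP1, SDF2L1, CRELD2 and MANF), beside 9.94% of all genes. It gave 1 higher in brain (DNAJB9), beside 10.7% of all genes. On the scale of CPM, which are counts scaled to a common library total with TMM factors, 7 of the 10 were lower in both brain libraries than in both spleen libraries, beside 26.7% of all genes. DNAJB9 was higher in both brain libraries, as were 30.2% of all genes, and HSP90B1 and HERPUD1 overlapped between the groups. On the TPM scale, which corrects for transcript length, HYOU1 and PDIA4 of the lower genes overlapped too, and HERPUD1 was higher in both brain libraries. The fitted log2 fold change was negative for 8 of 10 genes, against 46.7% of all genes, and its median was -0.30, against 0.04 over all genes. These figures describe the genes, which were chosen with earlier results of these data known, and are no test of the group.

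Matches to sequence elements of the response near the start of these genes are shown first. Whether they are bound or active in these cells was not tested. ATF6 and XBP1 bind ER stress response elements. Those searched were ERSE (CCAAT, any 9 bases, then CCACG), ERSE-II (ATTGG, any 1 base, then CCACG) and the core of the unfolded protein response element (UPRE core, TGACGTGG), on both strands of the window from 250 bases before to 50 bases after the annotated start of each gene (RefSeq, GRCh38.p14). All 10 genes had a window, and XBP1 and PDIA4 had 2 each. ERSE was found in 4 of them, in HSPA5, HSP90B1, XBP1 and CRELD2, and in 27 of 35116 windows of all genes (0.0769%). ERSE-II was found in 3, in SDF2L1, HERPUD1 and HYOU1, and in 19 of all windows (0.0541%). The UPRE core was found in 1, in HYOU1, and in 256 of all windows (0.729%). In HYOU1 the UPRE core overlaps an ERSE-II match and shares the letters CGTGG with it. DNAJB9, PDIA4 and MANF held no match in this window, which says only that these letters are not there. The matches are printed 5′ to 3′ on the strand of the gene, with 15 bases on either side in lower case and the match in capitals. A match that begins with CGTGG is the element read from the other strand.
HSPA5 ERSE, 66 to 48 bases before the start (chr9:125241376-125241424, minus strand): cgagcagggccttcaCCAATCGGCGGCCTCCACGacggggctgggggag
HSP90B1 ERSE, 194 to 176 bases before the start (chr12:103930201-103930249, plus strand): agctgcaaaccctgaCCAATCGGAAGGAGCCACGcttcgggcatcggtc
HSP90B1 ERSE, 89 to 71 bases before the start (chr12:103930306-103930354, plus strand): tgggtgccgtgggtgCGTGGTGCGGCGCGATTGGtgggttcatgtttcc
XBP1 ERSE, 52 to 34 bases before the start (chr22:28800588-28800636, minus strand): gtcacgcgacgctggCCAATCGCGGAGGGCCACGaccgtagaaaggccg
SDF2L1 ERSE-II, 188 to 178 bases before the start (chr22:21642099-21642139, plus strand): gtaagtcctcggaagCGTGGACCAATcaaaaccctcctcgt
HERPUD1 ERSE-II, 117 to 107 bases before the start (chr16:56932010-56932050, plus strand): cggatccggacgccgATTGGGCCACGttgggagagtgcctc
CRELD2 ERSE, 80 to 62 bases before the start (chr22:49918539-49918587, plus strand): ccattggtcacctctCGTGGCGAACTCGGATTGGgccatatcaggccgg
HYOU1 UPRE core and ERSE-II, 188 to 175 bases before the start (chr11:119057365-119057408, minus strand): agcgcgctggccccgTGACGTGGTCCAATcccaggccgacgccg
HYOU1 ERSE-II, 79 to 69 bases before the start (chr11:119057259-119057299, minus strand): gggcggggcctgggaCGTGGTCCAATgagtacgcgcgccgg

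XBP1 (ENSG00000100219, chromosome 22, 28794555 to 28800597, minus strand, GRCh38) encodes the transcription factor made when ERN1 cuts a segment of 26 bases out of its mRNA, which shifts the reading frame. The segment lies in exon 4 of ENST00000216037, at chr22:28796127-28796152 on the minus strand of GRCh38. It was located as the stretch between the pair of cleavage sites (CNGCAG) that lie 26 bases apart. The mRNA is printed around it before and after removal, with the segment in capitals, since it is what tells the forms apart.
XBP1 before removal: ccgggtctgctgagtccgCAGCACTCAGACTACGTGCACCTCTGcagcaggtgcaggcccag
XBP1 after removal: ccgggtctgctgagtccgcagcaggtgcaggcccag

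XBP1 had 435 and 453 CPM in brain, against 560 and 668 CPM in spleen, or 444 ± 12.5 CPM and 614 ± 76.5 CPM (SD, n = 2 each). Both brain libraries lay below both spleen libraries. The log2 fold change was -0.47 ± 0.14 (SE, 95% interval -0.80 to -0.13), with an adjusted p of 0.135 by edgeR's quasi-likelihood test. The fold change was -0.64 lacking spleen replicate 1 and -0.32 lacking spleen replicate 2. It was -0.44 lacking brain replicate 1 and -0.49 lacking brain replicate 2. With all libraries the adjusted p of XBP1 by edgeR's test was 0.0249 with no filter and 0.127 with the replicate number as a block. It was 0.0936 with the trend on GC content and length removed, and 0.125 by DESeq2.

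The XBP1 counts were divided among 7 transcripts in the deposited estimates. ENST00000216037, which holds the segment, carried 86.9% and 86.3% in brain and 87.7% and 87.4% in spleen. A transcript that is not in GENCODE release 44 (ENST00000611155, 1794 bases in the deposited estimates) was assigned to XBP1 because its counts fill the gap between the gene table and the annotated transcripts within 3 counts in every library. It carried 4.41% and 5.07% in brain, against 5.58% and 5.59% in spleen. Its share differed by -0.842 percentage points, and the exact two-sided permutation p was 1 in 3, the smallest that 2 against 2 libraries allow. Its sequence was not analysed here, so whether it lacks the segment was not established. ENST00000344347, the XBP1 transcript of release 44 that holds the join left after removal, was listed at 0 in all 4 libraries, but its length in the deposited estimates (1131 bases) differs from that in release 44, so the version counted is not the one read here. The balance of cut and uncut XBP1 mRNA is therefore not given by these values.

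ENST00000405219, a minor transcript that holds the segment, carried 2.93% and 1.94% in brain and 1.08% and 0.788% in spleen, a difference of 1.5 percentage points with the same exact permutation p of 1 in 3. For ENST00000403532 (2.06% and 0.881% in brain, 1.11% and 1.75% in spleen) and ENST00000484256 (3.66% and 5.71% in brain, 4.53% and 4.48% in spleen) the groups overlapped. ENST00000482720, which in release 44 holds neither the segment nor the join, had 3.74 and 13.2 estimated counts in brain and 3.22 and 6.59 in spleen.

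**Figure D1:**
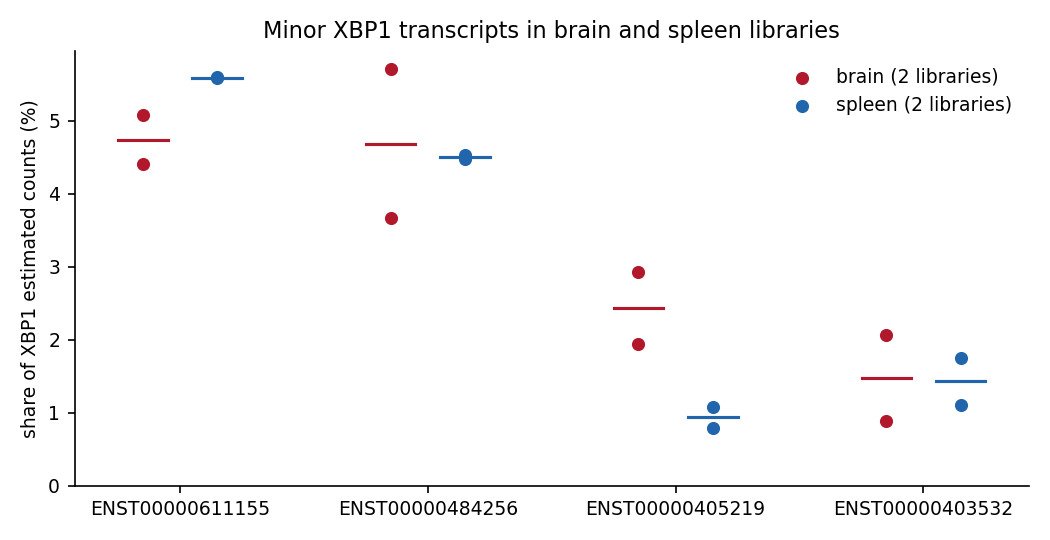
Share of XBP1 estimated counts (percent) in each of 4 minor XBP1 transcripts in the 2 brain libraries and the 2 spleen libraries. Points are libraries, and lines are group means. ENST00000611155 is lower in both brain libraries (4.41% and 5.07%) than in both spleen libraries (5.58% and 5.59%), and ENST00000405219 is higher (2.93% and 1.94%, against 1.08% and 0.788%).

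**Figure D2:**
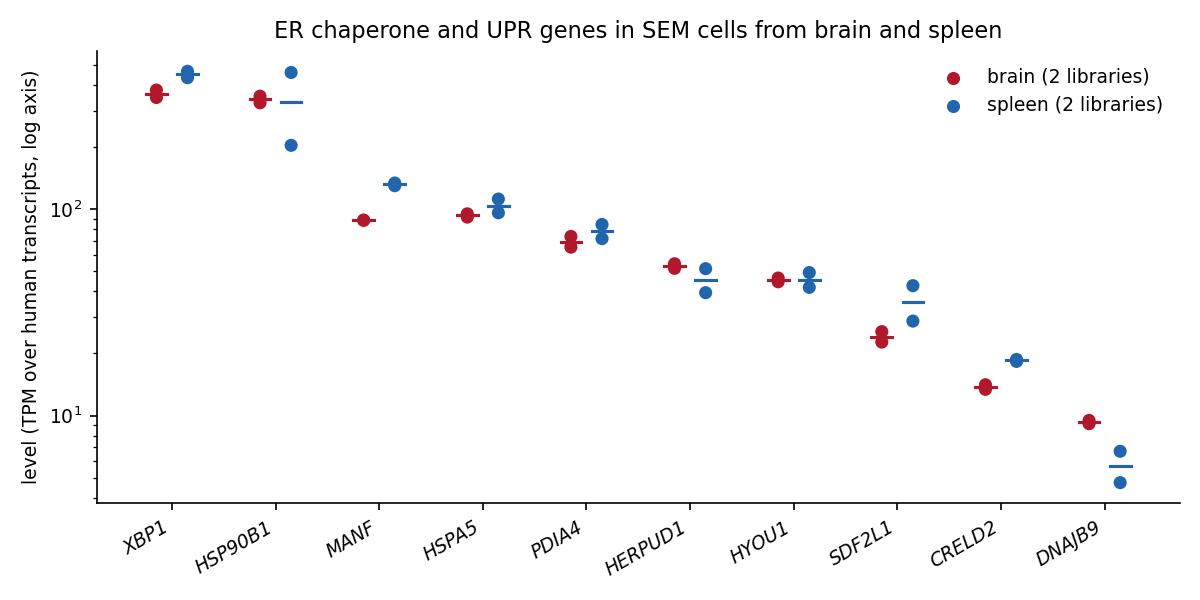
Level of each of the 10 genes in TPM over human transcripts (log axis) in the 2 brain libraries and the 2 spleen libraries. Points are libraries and short lines are group means. The spleen libraries of HSP90B1 (460 and 204 TPM) lie on either side of the brain libraries (353 and 328 TPM), and for MANF both brain libraries (88.4 and 88.5 TPM) lie under both spleen libraries (130 and 134 TPM).

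The large chaperones of the ER lumen come next. HSPA5 (BiP, ENSG00000044574, chromosome 9, 125234853 to 125241382, minus strand, GRCh38) is the HSP70 chaperone of the ER and holds the 3 sensors inactive until unfolded proteins draw it away. It had 263 and 244 CPM in brain, against 321 and 305 CPM in spleen, which is 254 ± 13.8 CPM and 313 ± 11.5 CPM (SD, n = 2 each). Both brain libraries lay below both spleen libraries. The log2 fold change was -0.30 ± 0.13 (SE, 95% interval -0.61 to 0.00), with an adjusted p of 0.246 by edgeR's quasi-likelihood test. The fold change was -0.32 lacking spleen replicate 1 and -0.33 lacking spleen replicate 2. On the TPM scale HSPA5 had 95 and 91.6 TPM in brain and 112 and 96.1 TPM in spleen, so there the groups were only just apart. All estimated counts of HSPA5 were on 1 transcript, ENST00000324460.

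HYOU1 (ENSG00000149428, chromosome 11, 119044188 to 119057227, minus strand), a large relative of HSP70 that exchanges the nucleotide of HSPA5, had 138 and 126 CPM in brain and 155 and 148 CPM in spleen. The brain libraries were again the lower ones, by a small margin: the log2 fold change was -0.20 ± 0.14 (95% interval -0.51 to 0.12) with an adjusted p of 0.44. It was -0.21 lacking spleen replicate 1 and -0.22 lacking spleen replicate 2. On the TPM scale, which corrects for transcript length and was rescaled here over human transcripts, HYOU1 overlapped between the groups, with 46.4 and 44.5 TPM in brain and 49.3 and 41.8 TPM in spleen. The annotated transcripts of HYOU1 held fewer counts than the gene table, and no single transcript filled that gap. These TPM values therefore leave out a part of the gene.

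HSP90B1 (GRP94, ENSG00000166598, chromosome 12, 103930107 to 103953931, plus strand), the HSP90 of the ER, which folds a narrower set of clients such as integrins and Toll-like receptors, had 636 and 562 CPM in brain and 808 and 386 CPM in spleen. The spleen libraries lay on either side of the brain libraries, and their difference, replicate 2 minus replicate 1, was -1.07 on the log2 scale. The group means were 599 ± 52.4 CPM in brain and 597 ± 299 CPM in spleen (SD, n = 2 each), with a log2 fold change of 0.00 ± 0.39 (95% interval -1.07 to 1.08) and an adjusted p of 0.997. The interval reaches a change of about 1 on the log2 scale in either direction, so these libraries do not show that the level was alike at the 2 sites. Set against spleen replicate 2 alone the brain libraries gave a log2 fold change of 0.58. Set against spleen replicate 1 alone they gave -0.42, so the direction is set by which spleen library is kept.

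The HSP70 partners differed in direction. DNAJB9 (ERdj4, ENSG00000128590, chromosome 7, 108569867 to 108574850, plus strand) is a J-domain protein that steers HSPA5 and keeps ERN1 in check. It had 16.8 and 15.5 CPM in brain and 13.1 and 10.2 CPM in spleen, so both brain libraries were above both spleen libraries. Its log2 fold change was 0.47 ± 0.20 (95% interval 0.02 to 0.92), with an adjusted p of 0.229, and it was the only gene of the 10 with an unadjusted p under 0.05 in that direction. Lacking spleen replicate 1 the fold change was 0.61, and lacking spleen replicate 2 it was 0.32.

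SDF2L1 (ENSG00000128228, chromosome 22, 21642302 to 21644299, plus strand), which works with the ER J-domain protein DNAJB11 (ERdj3) to keep proteins from aggregating, had 11.7 and 12.5 CPM in brain and 15.3 and 25.2 CPM in spleen. The 2 brain libraries were close to each other, and the spleen libraries were 0.70 apart on the log2 scale. The log2 fold change of -0.74 ± 0.25 (95% interval -1.33 to -0.16) had an adjusted p of 0.16. Lacking spleen replicate 1 the fold change was -1.11, and lacking spleen replicate 2 it was -0.33. By edgeR's test the adjusted p was 0.0334 with the replicate number as a block and 0.00884 with no filter. It was 0.155 with the trend on GC content and length removed, and 0.126 by DESeq2.

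Of the proteins that make or exchange disulfide bonds, PDIA4 (ERp72, ENSG00000155660, chromosome 7, 149003062 to 149028662, minus strand), a protein disulfide isomerase, had 142 and 122 CPM in brain and 165 and 158 CPM in spleen. CRELD2 (ENSG00000184164, chromosome 22, 49918167 to 49927540, plus strand), an ER stress-inducible protein with EGF-like domains and disulfide isomerase activity, had 13.1 and 12.2 CPM in brain and 17.1 and 20.1 CPM in spleen. On the CPM scale the brain libraries were below the spleen libraries for both genes. On the TPM scale this held for CRELD2 (14.1 and 13.4 TPM in brain, 18.3 and 18.7 TPM in spleen), while PDIA4 overlapped (73.8 and 65.5 TPM in brain, 84.3 and 72.0 TPM in spleen). The log2 fold changes were -0.29 ± 0.14 for PDIA4 (adjusted p = 0.293) and -0.56 ± 0.18 for CRELD2 (adjusted p = 0.146), with 95% intervals of -0.62 to 0.04 and of -0.97 to -0.14. PDIA4 was at -0.31 with either spleen library left out. CRELD2 was at -0.72 lacking spleen replicate 1 and at -0.43 lacking spleen replicate 2. The main transcript of CRELD2, ENST00000328268, held 64.8% and 64.9% of its estimated counts in brain and 80.2% and 78.3% in spleen. The groups did not overlap. That share was noticed after the values were seen, rests on 270 to 453 estimated counts of this transcript per library, and was not tested.

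MANF (ENSG00000145050, chromosome 3, 51385291 to 51389397, plus strand) is a small ER-resident protein that is secreted under ER stress, binds HSPA5 and protects cells from ER stress. It came closest to the threshold. It had 42.1 and 42.7 CPM in brain, against 65.9 and 75.0 CPM in spleen, or 42.4 ± 0.436 CPM and 70.5 ± 6.43 CPM (SD, n = 2 each). The groups were further apart than the libraries of either group were from each other, and on the TPM scale they were likewise apart, at 88.4 and 88.5 TPM in brain and 130 and 134 TPM in spleen. The log2 fold change was -0.73 ± 0.15 (95% interval -1.08 to -0.38) and the adjusted p was 0.0591 by edgeR's quasi-likelihood test. The adjusted p was 0.0107 with the replicate number as a block, 0.0321 with the trend on GC content and length removed (for MANF, those of a minor transcript), and 0.00505 by DESeq2. By edgeR's test it was 0.0011 with no filter, 0.0595 with DESeq2's size factors and 0.0722 under a stricter filter. With sums of the transcripts in GENCODE release 44 it was 0.077, but those sums leave out the main transcript of MANF. Over all 12 alternatives the log2 fold change stayed between -0.87 and -0.62, the values without spleen replicate 1 and without spleen replicate 2. It was -0.72 lacking brain replicate 1 and -0.74 lacking brain replicate 2. The adjusted p of these 4 fits is not given, since each has 1 library in a group. Its main transcript, to which 74.7% to 75.9% of its counts were assigned in every library, is not in GENCODE release 44 and was matched to MANF through the gene table.

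HERPUD1 (ENSG00000051108, chromosome 16, 56932142 to 56944864, plus strand) is a membrane protein that helps assemble the HRD1 complex of ER-associated degradation. It had 51.7 and 48.2 CPM in brain and 41.1 and 62.2 CPM in spleen, so on this scale the spleen libraries again lay on either side of the brain libraries. On the TPM scale both brain libraries were the higher ones, at 51.7 and 54.4 TPM in brain and 39.4 and 51.5 TPM in spleen. The log2 fold change was -0.05 ± 0.21 (95% interval -0.54 to 0.45) with an adjusted p of 0.923. As for HSP90B1, its direction depends on the spleen library kept: it was -0.37 against replicate 2 alone and 0.29 against replicate 1 alone.

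**Figure D3:**
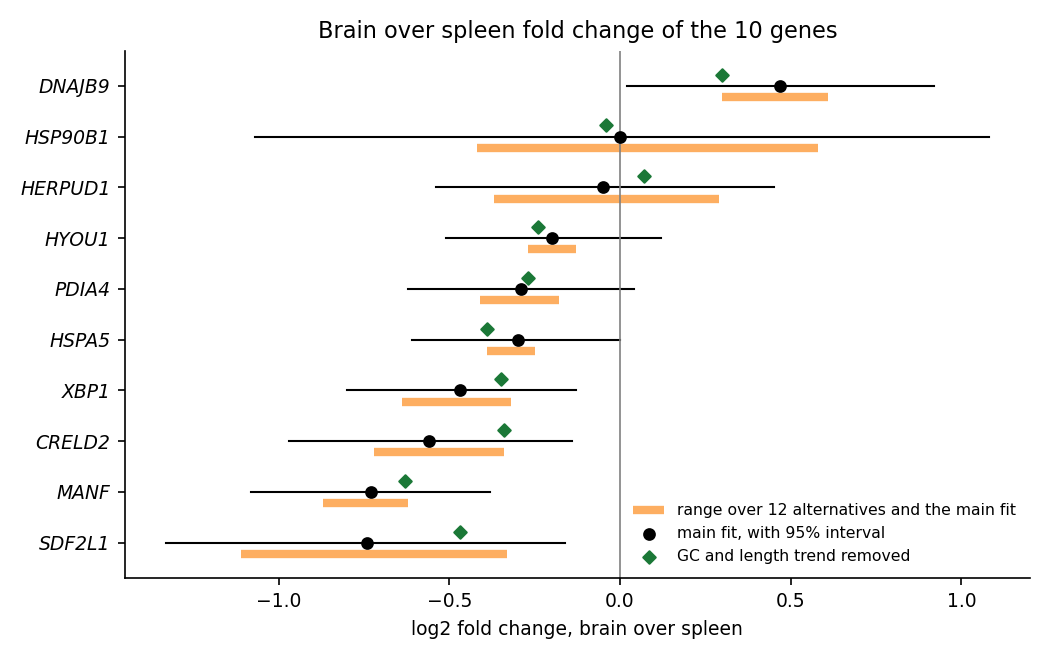
Log2 fold change, brain over spleen, of each of the 10 genes. Black points with lines are edgeR's fit with 95% intervals, orange bars give the range over that fit and the 12 alternatives, and green diamonds are the fit with the trend on GC content and length removed. MANF ranges between -0.87 and -0.62, while HSP90B1 (-0.42 to 0.58) and HERPUD1 (-0.37 to 0.29) lie on both sides of 0.

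Levels can be compared between genes only per length, and on the TPM scale they covered a 54.1-fold range. XBP1 was the highest (406 ± 53.3 TPM, SD over the 4 libraries) and HSP90B1 next (336 ± 105 TPM), and these overlapped. MANF (110 ± 25.4 TPM) and HSPA5 (98.8 ± 9.28 TPM) followed and overlapped with each other, as did HERPUD1 (49.2 ± 6.71 TPM) and HYOU1 (45.5 ± 3.17 TPM). PDIA4 lay between those pairs at 73.9 ± 7.79 TPM. The lowest were SDF2L1 (29.9 ± 8.86 TPM), whose highest library (42.6 TPM) overlapped the lowest of HERPUD1 (39.4 TPM) and of HYOU1 (41.8 TPM), then CRELD2 (16.1 ± 2.75 TPM) and DNAJB9 (7.51 ± 2.22 TPM), which overlapped with no other. Per kilobase of CPM, HSPA5 stood above MANF and HYOU1 above HERPUD1, so the order within those pairs is not fixed. The 10 genes together made up 1103 and 1099 TPM in brain and 1363 and 1132 TPM in spleen.

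The spleen libraries differed from each other more than the brain libraries did, and this touches each value above. The median size of the log2 difference between replicates was 0.12 in brain and 0.26 in spleen over all genes. Over the 10 it was 0.11 (brain) and 0.24 (spleen). In spleen the difference moved with the GC content of the transcript. Genes with a GC content of up to 41.1% had a median difference, replicate 2 minus replicate 1, of -0.42 in spleen, and genes of 57.7% or more had 0.22. In brain those medians were -0.00 and -0.03. HSP90B1 (41.8% GC) and DNAJB9 (37.3%) lie at the low end and SDF2L1 (65.1%) at the high end. Across the 10 genes Pearson's r of GC with the replicate difference was 0.65 in spleen and 0.37 in brain, as a description over genes that share the same libraries. With the trend on GC and length removed, SDF2L1 was at -0.47, CRELD2 at -0.34, XBP1 at -0.35, DNAJB9 at 0.30 and HSPA5 at -0.39 on the log2 fold change scale.

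**Figure D4:**
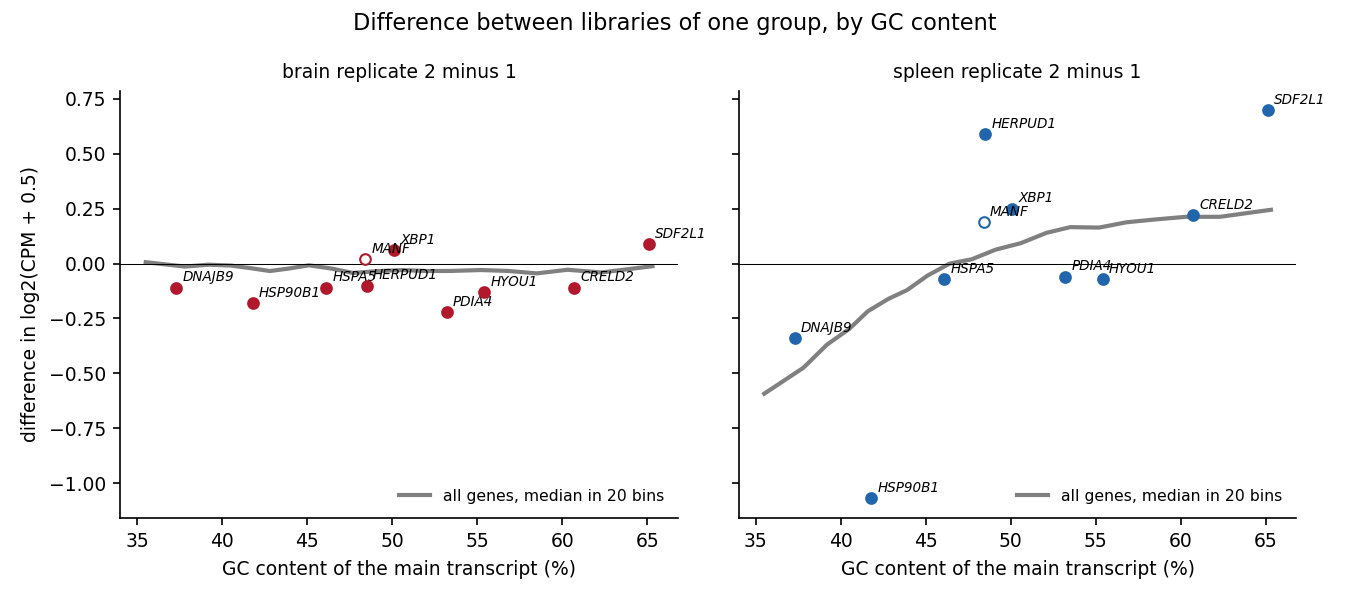
Replicate 2 minus replicate 1, as the difference in log2(CPM + 0.5), against the GC content of the main annotated transcript (percent), for brain on the left and spleen on the right. Labelled points are the 10 genes, the grey line joins the medians of all genes in bins of GC, and the open symbol marks MANF, whose GC content is that of a minor transcript. The line is near 0 across GC in brain and climbs with GC in spleen.

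Leaving out a spleen library changed the count of calls among the 10 and over the whole table alike. A count of calls from such a fit is therefore no result about the 10. Where 1 library stood for a group, its spread was taken from the other group, and the genes called over the whole table were 6807 without spleen replicate 1 and 3128 without spleen replicate 2, against 345 with all libraries. With the replicate number as a block, 2 of 10 were called, SDF2L1 and MANF, both lower in brain, beside 3.37% of all genes lower in brain under the same fit.

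The rest of the pathway was read through 5 lists of genes. Of the sensors and transducers of the response, 19 of 20 were tested, of which 1 was higher in brain, 0 were lower and 18 did not pass. That gene was PPP1R15A (GADD34), which brings a phosphatase to eIF2 and so restores translation. It rose to 44.6 ± 4.23 CPM in brain, against 24.2 ± 1.96 CPM in spleen (SD, n = 2 each), with a log2 fold change of 0.88 ± 0.17 and an adjusted p of 0.0437. The call ended under a stricter filter (adjusted p of 0.0586 by edgeR's test). The log2 fold change of PPP1R15A was 0.78 lacking brain replicate 1 and 0.98 lacking brain replicate 2. It was 0.92 lacking spleen replicate 1 and 0.82 lacking spleen replicate 2. Over this list 13 fold changes were positive and 6 negative, with a median of 0.21, against 0.04 over all genes. That median was 0.08 without spleen replicate 1 and 0.08 with the trend on GC content and length removed. With the replicate block 2 genes of the list were called, both higher in brain, PPP1R15A and TRIB3, a pseudokinase induced by ATF4. Of all 17075 genes that fit called 1853, of which 575 were lower in brain and the rest higher. Calls with the block in each of the 5 lists are to be set beside these counts.

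The sensors themselves, outside the rule for named genes, did not pass. EIF2AK3 averaged 53.0 ± 3.2 CPM in brain and 36.8 ± 2.41 CPM in spleen, with an adjusted p of 0.125. ERN1 averaged 4.72 CPM in brain and 3.55 CPM in spleen, and ATF6 averaged 53.4 CPM in brain and 44.2 CPM in spleen. ATF4, the transcription factor that acts after EIF2AK3, averaged 383 ± 15.5 CPM in brain and 507 ± 46.8 CPM in spleen, with an adjusted p of 0.16. DDIT3 (CHOP), the proapoptotic target of ATF4, averaged 12.4 CPM in brain and 12.2 CPM in spleen, a log2 fold change of 0.02.

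Among 28 genes of ER-associated degradation, 1 was higher in brain, 0 were lower and 27 did not pass. This was SYVN1 (HRD1), the ubiquitin ligase at the centre of the complex that HERPUD1 joins. It had 93.7 and 99.5 CPM in brain and 44.3 and 58.6 CPM in spleen, with a log2 fold change of 0.91 ± 0.17 and an adjusted p of 0.0465. This call ended with another scaling (adjusted p of 0.0595 with DESeq2's size factors in edgeR) and under a stricter filter (0.0603). The log2 fold change of SYVN1 was 0.95 lacking brain replicate 1 and 0.87 lacking brain replicate 2. It was 0.67 lacking spleen replicate 1 and 1.14 lacking spleen replicate 2. Both PPP1R15A and SYVN1 were higher in each brain library than in each spleen library. The fold changes of this list were 14 positive and 14 negative, with a median of -0.01. Leaving out spleen replicate 1 gave a median of -0.10 and leaving out spleen replicate 2 gave 0.00, and with the replicate block 2 genes were called, both higher in brain, SYVN1 and DERL3, a derlin of the degradation channel.

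None of the other 3 lists held a gene that passed by edgeR's test without the replicate block, and each held 1 or 2 that passed with it. Of 34 other ER chaperones and folding enzymes, 0 were called, with 1 higher and 5 lower at an unadjusted p under 0.05. At that threshold 10.7% of all genes were higher and 9.94% lower in brain, the shares to set beside each of these 3 lists. The median log2 fold change was -0.09 (-0.21 without spleen replicate 1). Over the 4 libraries the highest mean CPM, which is not corrected for length, belonged to CANX (calnexin), a lectin chaperone of glycoproteins, at 718 ± 43.3 CPM in brain and 696 ± 75.7 CPM in spleen, and PDIA6, a disulfide isomerase, at 654 ± 42.7 CPM in brain and 738 ± 16.5 CPM in spleen. PPIB, a prolyl isomerase of the ER, was lower in brain with the block (174 ± 11.7 CPM in brain, 254 ± 14.1 CPM in spleen, adjusted p = 0.0479, against 0.0899 without the block and 9.38e-07 to 0.675 over the alternatives). Of 38 genes of translocation into the ER and traffic to the Golgi, 0 were called, with 0 higher and 8 lower at an unadjusted p under 0.05 and a median of -0.17 (-0.27 without spleen replicate 1, -0.06 without spleen replicate 2). STT3B and RPN2, subunits of the oligosaccharyltransferase that attaches sugars to new proteins, had the highest mean CPM over the 4 libraries together. STT3B averaged 311 ± 12.9 CPM in brain and 291 ± 43.9 CPM in spleen, and RPN2 averaged 227 ± 11.0 CPM in brain and 267 ± 13.8 CPM in spleen. SEC62, a subunit of the translocation channel, was called higher in brain with the block (110 and 107 CPM in brain, 101 and 40.3 CPM in spleen, adjusted p = 0.0052, against 0.552 without the block and 2.06e-11 to 0.782 over the alternatives). Of 15 heat shock proteins of cytosol and mitochondria, which belong to another stress response, 0 were called, with 1 higher and 3 lower at that threshold and a median of -0.22 (-0.05 without spleen replicate 2). HSPA8, the constitutive HSP70 of the cytosol, averaged 1918 ± 276 CPM in brain and 2315 ± 108 CPM in spleen, and HSP90AA1, the inducible HSP90 of the cytosol, averaged 2312 ± 202 CPM in brain and 2239 ± 549 CPM in spleen. HSPA1A, a stress-inducible HSP70 of the cytosol, had 122 and 160 CPM in brain and 41.0 and 81.9 CPM in spleen, so the groups did not overlap. Its log2 fold change was 1.20 ± 0.38 with an adjusted p of 0.197, while DESeq2 and the block (5.52e-08) called it, and the adjusted p ranged between 8.3e-09 and 0.216 over the alternatives. Its near-identical copy HSPA1B, with which reads may be shared, had 145 and 223 CPM in brain and 48.7 and 138 CPM in spleen and was called with the block (1.25e-06), against 0.474 without it and 1.25e-06 to 0.782 over the alternatives. TRIB3, DERL3, PPIB, SEC62, HSPA1A and HSPA1B are outside the rule for named genes and were chosen after their values were seen. DESeq2 called 5 genes over all 5 lists together, where edgeR's test called 2.

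**Figure D5:**
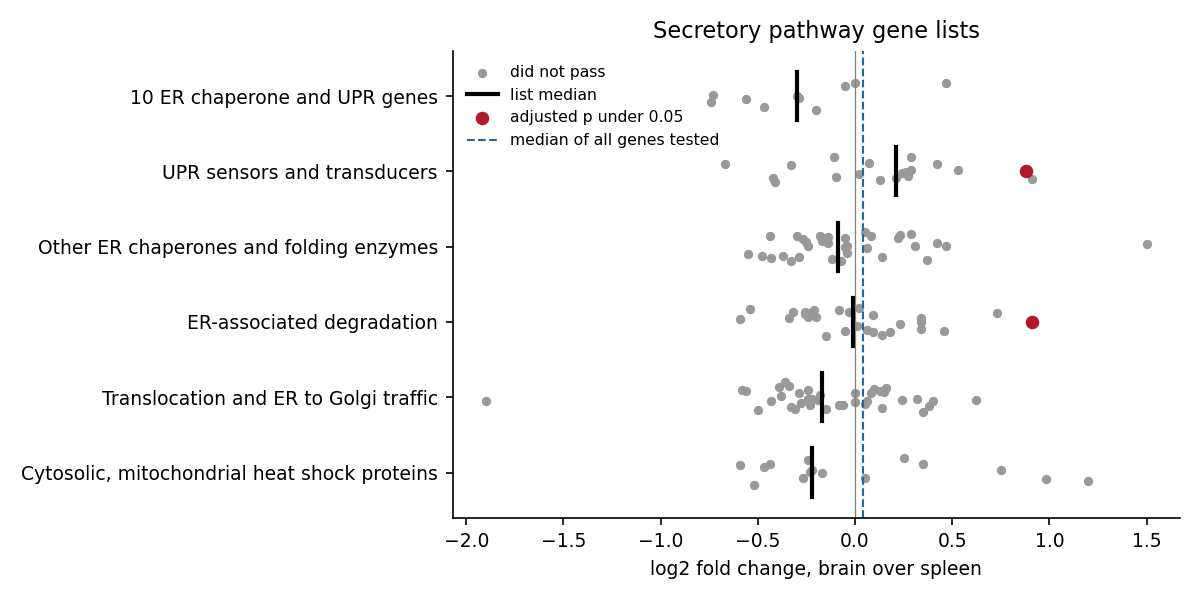
Log2 fold change, brain over spleen, of every gene tested among the 10 and in the 5 lists. Each point is a gene, red and larger where its adjusted p was under 0.05 by edgeR's quasi-likelihood test, black lines are medians, and the dashed line is the median of all genes (0.04). The red points are PPP1R15A (0.88) and SYVN1 (0.91). The outermost grey points, UGGT2 on the right and KDELR3 on the left, were under 1 CPM in every library.

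The genes nearest to the median profile of the 10 over the 4 libraries, by Euclidean distance of log2 deviations among 9097 genes of at least 10 CPM, were LRPAP1 (0.0458), RNF130 (0.0503), ECE1 (0.0521), ARPC2 (0.0535) and ZNF362 (0.0546). That profile lay at -0.07 and -0.20 for the brain libraries and at 0.15 and 0.21 for the spleen libraries. In all, 142 genes lay within 0.1 of it.

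The libraries held 26266136 to 36913437 counts, and a gene with no count could have had up to 3, or 0.0813 to 0.114 CPM. The labelled cell type was checked by its markers: 11 of 12 B-cell precursor markers reached 1 CPM, among them PAX5, and their summed level was 2606 to 2663 CPM in brain and 1946 to 2094 CPM in spleen. Of 8 plasma cell markers, 4 reached 1 CPM, with sums of 192 to 204 CPM in brain and 122 to 176 CPM in spleen, most of it MZB1. Of the others, IRF4 was higher in the brain libraries (30.1 and 25.8 CPM, against 5.55 and 6.45 CPM in the spleen libraries) and FKBP11 lower (20.7 and 21.0 CPM, against 25.7 and 29.7 CPM). Mouse transcripts took 1.45% to 2.24% of the estimated counts in the brain libraries, against 4.31% to 6.32% in the spleen libraries. Summed human markers also stood apart for neurons (39.1 to 49.4 CPM in brain, 17.7 to 25.3 CPM in spleen, 2 of 6 reaching 1 CPM, with SNAP25, STMN2 and NEFL at 0). They did so for glia (117 to 132 CPM in brain, 89.5 to 92.9 CPM in spleen), where MBP alone of 6 reached 1 CPM, and for endothelium (50.9 to 73.4 CPM in brain, 33.6 to 34.9 CPM in spleen, 2 of 5 reaching 1 CPM, mainly PECAM1). T and NK cell markers summed to 53 to 62.4 CPM in brain and 72.8 to 87.4 CPM in spleen (2 of 6 reaching 1 CPM, mainly NKG7, with CD3D and CD2 at 0), and neutrophil markers to 2.16 to 2.49 CPM in brain and 4.7 to 5.62 CPM in spleen (1 of 5, MPO, with S100A8, S100A9 and ELANE at 0). Macrophage and microglia markers summed to 44 to 62.1 CPM in brain and 62.5 to 70 CPM in spleen (6 of 11 reaching 1 CPM, with C1QA and C1QB at 0). The sums of fibroblast, erythroid and platelet markers overlapped between the sites. The part of these markers and of the mouse share in the values above was not tested. In such pools, fewer cells of a kind and less RNA per cell cannot be told apart, and p-values measure the spread between 2 pooled repeats of each site only.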

How the data were processed

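The authors deposited counts per human gene, as whole numbers without normalization. Per transcript, the authors deposited estimated counts and TPM, for human and mouse transcripts together. The submitters' processing notes name kallisto 0.42.4, cutadapt 1.5, bcl2fastq 1.8.4 and DESeq2, and the builds GRCh38 and GRCm38. The sources used here give neither their settings nor the annotation release. The count table holds 1 further column whose name matches no sample, which was not used.

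Brain was compared with spleen on the deposited counts with edgeR 4.0.16 in R 4.3.3 (filterByExpr, TMM factors, robust quasi-likelihood fit and test, Benjamini-Hochberg adjustment over 17075 genes, threshold 0.05), without a replicate block. The scripts were tested on simulated data. TPM was rescaled over human transcripts, and estimated counts gave transcript shares. Of 65217 gene identifiers, 56322 matched GENCODE release 44 on GRCh38. Coordinates of genes and of the XBP1 segment are from that annotation and genome, and promoter windows from RefSeq on GRCh38.p14. Counts on pseudogenes of the 10 genes were at most 0.0531% of the parent gene's counts.

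The labels state that each replicate number marks 1 occasion of the experiment, so the numbers pair the libraries. The deviations of libraries with the same number were nevertheless close to uncorrelated across genes (Pearson r of 0.0117). Named are all 10 genes and, from each list, up to 4 called genes of largest fold change or, with none called, the 2 of highest CPM. Further genes were named after their values were seen and are marked so or shown only in a figure. The 10 genes and the lists were chosen with earlier results of these data known. The 12 alternatives were edgeR with DESeq2's size factors (RLE), DESeq2 1.42.0, no filter, a stricter filter (mean of 1 CPM and 50 counts in all), transcript sums in place of gene counts, the replicate block, removal of the trend on GC content and length with and without the block, and each library left out.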

Additional observations from a re-analysis of the deposited data

How the results depend on the processing

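With 2 pooled libraries per site, counts of calls moved strongly with the settings. Against 345 genes called, DESeq2 called 931, the replicate block 1853, removal of the GC and length trend 629 (871 with the block), no filter 2123 and the stricter filter 187, and leaving out a library gave 404 to 6807. Of the 10 genes, where edgeR's test called 0, DESeq2 called 1, the replicate block 2, the GC and length trend 1 without and 1 with the block, no filter 3, and leaving out a library 0 to 9. Of the genes of the 5 lists, where it called 2, DESeq2 called 5, the replicate block 8, the GC and length trend with the block 7, RLE scaling 1, no filter 15 and the stricter filter 0, and leaving out a library gave 0 to 82. Transcript sums called 3 of these. The cause was not tested.

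Of 120 log2 fold changes of the 10 genes over the 12 alternatives, 90 kept direction and side of the threshold, 21 kept direction and passed it, and 9 changed sign. Most of the 21 came from fits with 1 spleen library, whose calls are no result about the 10. HSP90B1 changed sign with DESeq2 (-0.02), RLE scaling (-0.02), the GC and length trend removed (-0.04), without brain replicate 1 (-0.09) and without spleen replicate 2 (-0.42), and its range with a library left out was -0.42 to 0.58. HERPUD1 changed sign with the GC and length trend removed (0.07, and 0.09 with the block), without brain replicate 2 (0.00) and without spleen replicate 2 (0.29), with a range of -0.37 to 0.29 with a library left out. The other 8 kept their sign. Among named list genes, CANX changed sign with the GC and length trend removed (-0.20, and -0.20 with the block), without brain replicate 1 (-0.02) and without spleen replicate 2 (-0.05), with a range of -0.05 to 0.11 with a library left out. STT3B did so at -0.09, -0.09 with the block and -0.04 without spleen replicate 2 (range with a library left out -0.04 to 0.21). HSP90AA1 did so at -0.05, -0.05 with the block, -0.04 without brain replicate 2 and -0.17 without spleen replicate 2 (range with a library left out -0.17 to 0.27). With the replicate block, the pairing changed no other call among the genes named by the rule than SDF2L1 and MANF.

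The difference in the share of ENST00000611155 was -0.883 percentage points on the TPM scale, -1.17 to -0.513 with a library left out, and -1.17 and -0.519 within replicates 1 and 2. The mouse share differed by -3.47 percentage points of counts and -4.21 of TPM. The least abundant of the 10 genes, DNAJB9, still had 258 estimated counts or more on its main transcript in every library.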
